A study of Homo sapiens with 96 samples.

Results

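The comparison was between MDA-MB-231 cells given EGF and cells given no EGF, read from 4 to 12 h after the addition. MDA-MB-231 is a human breast cancer cell line, and 27 of the 96 arrays of the series entered the comparison. The EGF cells came from both arms without an inhibitor, 9 arrays labelled EGF and 9 labelled DMSO-EGF, against 9 arrays labelled control. All arrays of these arms with the labels 4h, 8h and 12h were taken. Cells had reached 80% confluence and then spent 24 h in low serum, and EGF was given at 10 ng/ml. The DMSO-EGF cells also received the vehicle DMSO for 30 min before EGF, and the control cells received neither agent. A further arm, given the inhibitor U0126 at 10 µM and EGF, was left out of the comparison and is set beside it further below. The arrays came from 3 named sets, 2D03 and 2D04 from 2D culture and 3D04 from 3D culture. Each combination of set and time held 1 EGF, 1 DMSO-EGF and 1 control array, and these 9 blocks were the unit within which EGF and control were compared. The labels do not say whether the sets were separate cultures, so the p-values below measure the spread between these samples. They also rest on a single cell line, and 3D culture on a single set.

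EGF is a secreted growth factor that binds its receptor EGFR, a tyrosine kinase at the cell surface. The active receptor signals through RAS, RAF and MEK to the kinase ERK, which switches on immediate early genes such as EGR1 and FOS within minutes. Their products then drive later genes, among them cytokines, further EGFR ligands and inhibitors that dampen the pathway.

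Values are on a presumed log2 scale, relative to a reference for each probe set that the sources used here do not describe. They give differences between arrays and no absolute level, and for that reason the cell line could not be checked by the level of its markers. Array medians lay between -0.04 and 0.01 in the EGF arms and between -0.04 and 0.03 in control. The 5′ minus 3′ difference of the actin control probe sets, a sign of RNA quality, lay between -0.04 and 0.16 (median 0.06) in the EGF arms and between -0.04 and 0.19 (median 0.04) in control. The block of set 2D03 at 8 h stood apart: its EGF minus control differences had an SD over genes of 0.259, against 0.125 to 0.189 in the other 8 blocks. Without its 3 arrays 18 of 11874 genes (0.152%) passed the test described next, 16 of them among the 44 of the whole comparison.

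Transcription at 4 to 12 h differed little between EGF and control, and few genes passed the test. Of 11874 genes 44 passed (0.371%), 26 that rose (0.219%) and 18 that fell (0.152%), at an adjusted p of 0.05 with limma and Benjamini-Hochberg adjustment over all genes. Fold changes of the genes that rose lay between 1.11 and 1.45 (median 1.18), and those of the genes that fell between 1.11 and 1.32 (median 1.16). At an unadjusted p under 0.05 there were 1344 genes (11.3%). Of the genes that rose 13 were higher in 9 of 9 blocks, as 90 of all genes were (0.758%), and of the genes that fell 13 were lower in 9 of 9, as 54 of all genes were (0.455%). All 44 kept their direction in every alternative that tested them. Those runs reused the arrays that chose the genes, or parts of them, so a kept direction is not independent support. The test itself rested on the whole set of arrays. Leaving out either 2D set, or any one of the 3 times, left 1 or 2 genes past it. CXCL8 was among them each time and was the only one of the 44. Leaving out 3D04 gave 84, of which 32 were among the 44.

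CXCL8, which encodes the neutrophil-attracting chemokine interleukin-8, was the gene with the smallest p. It lies on chromosome 4 from 73740569 to 73743716 (GRCh38.p14). CXCL8 was read on its only listed probe set, whose suffix x_at marks possible cross-hybridisation. In set 2D03 its value was 4.53, 4.27 and 4.43 in EGF cells and 4.62, 4.35 and 4.48 in DMSO-EGF cells at 4, 8 and 12 h, against 4.08, 3.65 and 3.92 in control. In set 2D04 it was 2.26, 2.06 and 1.75 in EGF cells and 2.26, 2.04 and 1.69 in DMSO-EGF cells, against 1.46, 1.39 and 0.84 in control. In set 3D04 it was 1.76, 1.54 and 1.58 in EGF cells and 1.84, 1.5 and 1.37 in DMSO-EGF cells, against 1.38, 1.32 and 1.31 in control. All 18 EGF arrays were thus above the control array of their own set and time, and all values of 2D03 lay above those of the other 2 sets. CXCL8 rose 1.45-fold (log2 0.54, SE 0.06, limma adjusted p = 2.8e-05), with a 95% interval of 1.34 to 1.57-fold.

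EGR1 and IER2, immediate early genes whose products act on transcription, also rose. EGR1, a zinc finger transcription factor on chromosome 5 (138465479 to 138469303), lay between 0.94 and 3.42 (median 2.24) on the EGF arrays, against 0.86 to 2.80 (median 1.71) in control. It was above its own control on 17 of 18 EGF arrays, the exception being the EGF array of 3D04 at 12 h. EGR1 rose 1.36-fold (log2 0.44, SE 0.08, limma adjusted p = 0.020), and its second probe set stood at 0.55. IER2, on chromosome 19 (13150411 to 13154911), lay between 0.01 and 1.54 (median 0.52) on the EGF arrays, against -0.10 to 1.05 (median 0.25) in control. It was above its own control on all 18 EGF arrays and rose 1.22-fold (log2 0.29, SE 0.05, limma adjusted p = 0.0065). Over all sets the ranges of EGF and control overlapped for both genes, and within the 2D sets every EGF array was above its control.

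**Figure D1:**
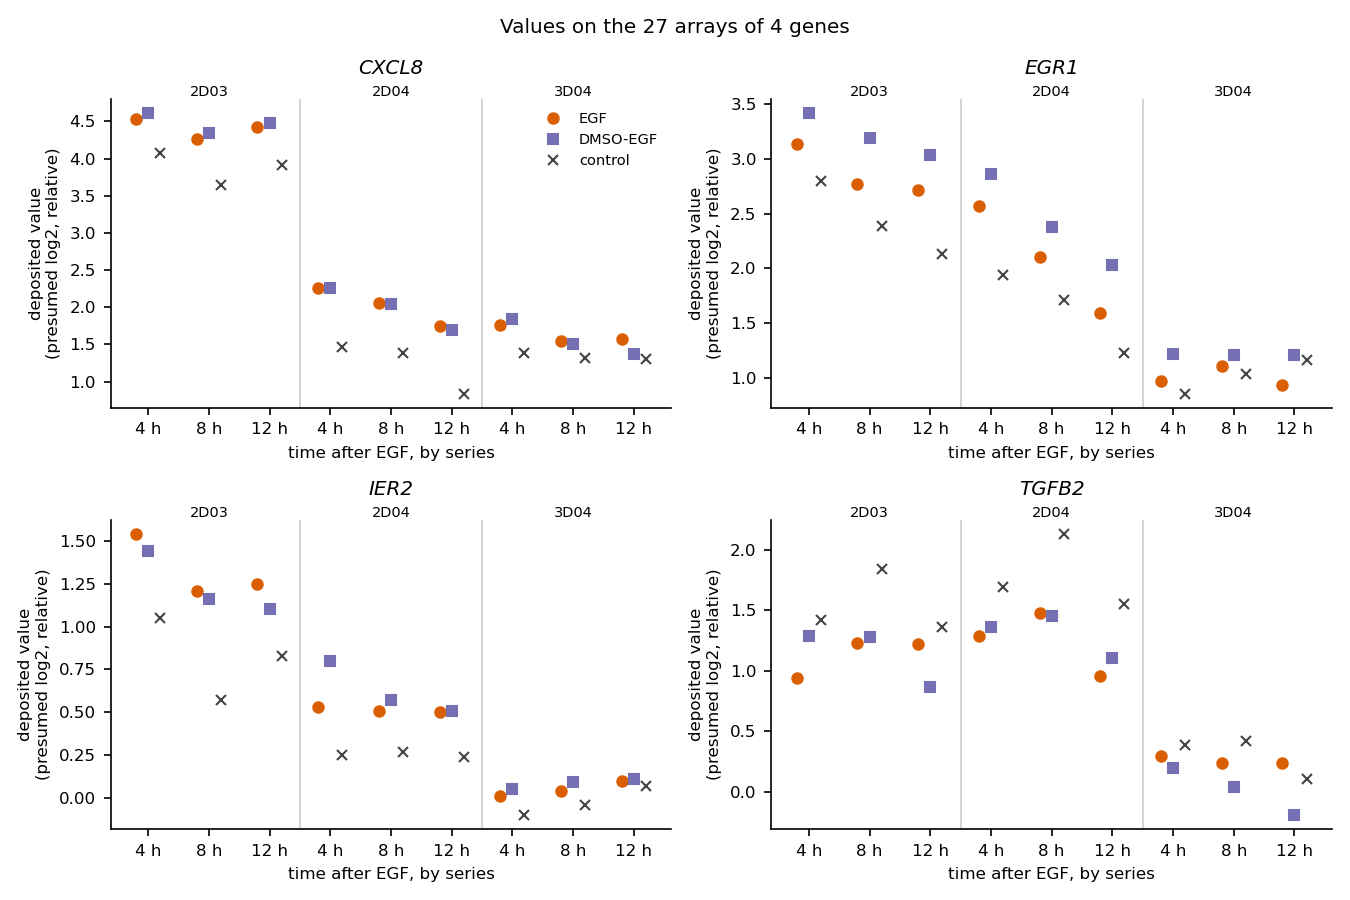
Values on the 27 arrays of CXCL8, EGR1, IER2 and TGFB2 (y axes, presumed log2 and relative), by set and time (x axes), with orange circles for EGF, violet squares for DMSO-EGF and grey crosses for control. In every block the EGF and DMSO-EGF points of CXCL8 and IER2 lie above the control cross, by 0.17 to 0.88 on average for CXCL8, and the distances are smallest in 3D04.

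The promoters of EGR1 and CXCL8 are shown because each was the only one among the genes that rose to hold the motif marked in it. The sequences are the 250 bases before the start of each gene, from RefSeq on GRCh38.p14. Capitals mark a pair of CArG boxes, the site of the serum response factor SRF, in EGR1 (chr5:138465229-138465478, plus strand), and the AP-1 site TGANTCA in CXCL8 (chr4:73740319-73740568, plus strand).
EGR1: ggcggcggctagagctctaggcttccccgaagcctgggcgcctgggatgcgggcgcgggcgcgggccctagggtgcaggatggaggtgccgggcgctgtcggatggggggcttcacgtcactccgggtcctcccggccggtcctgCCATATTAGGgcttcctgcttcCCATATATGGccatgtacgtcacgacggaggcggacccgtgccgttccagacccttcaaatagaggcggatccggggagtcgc
CXCL8: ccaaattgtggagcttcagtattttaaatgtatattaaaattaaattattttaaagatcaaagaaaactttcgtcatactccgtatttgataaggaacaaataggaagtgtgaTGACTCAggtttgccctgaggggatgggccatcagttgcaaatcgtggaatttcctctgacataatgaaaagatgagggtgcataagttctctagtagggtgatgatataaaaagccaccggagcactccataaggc

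The CArG boxes of EGR1 lie at -105 to -96 and -83 to -74 from the gene's start, and the AP-1 site of CXCL8 at -137 to -131. A promoter was at hand for 21 of the 26 genes that rose, 13 of the 18 that fell and 9592 of all 11874 genes, and both strands were searched. The CArG box was in 1 of 21 promoters of genes that rose (4.76%), 0 of 13 of genes that fell and 1.24% of all promoters. The AP-1 site was in 1 of 21 (4.76%), 0 of 13 and 5.48%. The ETS core CCGGAA was in 9 of 21 promoters of genes that rose (42.9%), IER2, PHLDA1 and ITGB1 among them, in 3 of 13 of genes that fell (23.1%) and in 24.7% of all. The cAMP-response half-site TGACG was in 10 of 21 (47.6%), 3 of 13 (23.1%) and 31.4%, the full site TGACGTCA, which contains it, in 2 of 21 (9.52%), 0 of 13 and 3.11%, and the E-box CACGTG in 3 of 21 (14.3%), 3 of 13 (23.1%) and 9.3%. These matches are letters in a window and show no binding.

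Among the ligands of EGFR, HBEGF rose. HBEGF encodes a membrane-anchored growth factor that is shed to activate EGFR, and its log2 difference was 0.23 (SE 0.04, limma adjusted p = 0.0099), higher in 9 of 9 blocks. It lay between 1.55 and 2.79 (median 2.10) on the EGF arrays, against 1.48 to 2.63 (median 1.73) in control. The other HBEGF probe sets stood at 0.20 and 0.004. EREG, which encodes the ligand epiregulin, stood at 0.18 (adjusted p = 0.21), TGFA at 0.03 and BTC at -0.03, none of them past the test. In all 1 of 5 measured ligands rose, against 0.219% of all genes. None of 12 receptors and adaptors passed: EGFR itself stood at log2 -0.05 (95% interval -0.17 to 0.06), and the median of the list was -0.003 against 0.003 over all genes.

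Of 26 immediate early genes 2 rose, EGR1 and IER2 (0.219% of all genes did), and 0 fell. Of these genes 25 had a positive difference (96.2%, against 52.0% of all genes) and 17 had an unadjusted p under 0.05 on the higher side, which 760 of all genes (6.4%) had. Their median was 0.14, against 0.003 over all genes. RHOB, a small GTPase gene induced early by growth factors, had the highest difference of all genes measured, log2 0.71, and did not pass (SE 0.18, limma adjusted p = 0.068). At 4 h RHOB was 0.89 in EGF cells and 1.25 in DMSO-EGF cells of 2D03, against -0.98 in control, and in 2D04 it was -0.08 and 0.14, against -1.73. In 3D04 at 4 h it was -0.61 and -0.52, against -0.72. RHOB values in 2D therefore spread widely over the times, from an EGF minus control difference of 2.05 down to 0.065 (2D04 at 8 h), and those in 3D lay between -0.095 and 0.16. FOS, the AP-1 subunit, stood at 0.32 (adjusted p = 0.39) and MYC, a growth regulator, at 0.14 (adjusted p = 0.064).

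Genes of the delayed ERK output, which follow the immediate early wave, were the list with the most members past the test. Of 16 measured 4 rose (0.219% of all genes did) and 0 fell, with a median of 0.10 against 0.003 over all genes. LIF, a cytokine of the interleukin-6 family, lay between 1.75 and 2.80 (median 2.25) on the EGF arrays, against 1.45 to 2.37 (median 2.01) in control, and rose by 0.26 on the log2 scale (SE 0.05, limma adjusted p = 0.020). PHLDA1, a pleckstrin homology domain gene, rose by 0.25 (adjusted p = 0.028), TNFRSF12A, the receptor of the cytokine TWEAK, by 0.20 (adjusted p = 0.020) and FOSL1, an AP-1 subunit, by 0.18 (adjusted p = 0.045). The other 4 probe sets of PHLDA1 stood lower, between 0.07 and 0.14. CCND1, which encodes cyclin D1, stood at -0.04 (95% interval -0.12 to 0.04).

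None of 14 measured feedback inhibitors of the receptor and of ERK passed, and their median was 0.002. The ERK phosphatase genes DUSP5 and DUSP6 stood at 0.16 (adjusted p = 0.067) and 0.11 (adjusted p = 0.46), DUSP1 at 0.28 (adjusted p = 0.18), and SPRY4, which encodes a Sprouty inhibitor, at 0.13 (adjusted p = 0.12). Their other probe sets stood lower, at 0.11 for DUSP1, 0.03 for SPRY4 and 0.08 for DUSP6. The DUSP1 probe set read has the suffix x_at. SPRY1 stood at -0.19 (adjusted p = 0.26). The members with the smallest p thus pointed both ways. The differences of SPRY1 and DUSP1 were largest in 2D03. SPRY1 lay between -0.70 and -0.40 in 2D03, -0.145 and 0 in 2D04, and 0 and 0.04 in 3D04. DUSP1 lay between 0.405 and 0.905 in 2D03, -0.095 and 0.125 in 2D04, and 0.08 and 0.195 in 3D04.

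Of 14 inflammatory genes CXCL8 alone rose (0.219% of all genes did), and the median of the list was 0.07. CXCL2, a second neutrophil chemokine, stood at 0.40 (SE 0.10, adjusted p = 0.067), and PTGS2, which encodes cyclooxygenase 2, at 0.30 (adjusted p = 0.32). The only listed CXCL2 probe set carries the suffix x_at as well. PLAUR, the urokinase receptor, led 13 invasion and protease genes at 0.19 (adjusted p = 0.079), of which 0 passed. PTX3, a secreted pattern recognition protein, rose by 0.27 (adjusted p = 0.045).

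Genes of other roles rose as well. SLC7A5, a subunit of a transporter of large neutral amino acids, was above its own control on all 18 EGF arrays, as 12 of all genes were (0.101%), and rose by 0.27 (SE 0.05, limma adjusted p = 0.0072). GADD45A, a stress and growth arrest gene, rose by 0.24 (adjusted p = 0.032), ST3GAL1, a sialyltransferase gene, by 0.28 (adjusted p = 0.028), and PVR, which encodes a cell adhesion receptor, by 0.19 (adjusted p = 0.032). ITGB1, integrin beta 1, rose by 0.27 (adjusted p = 0.0099) on the probe set read, whose suffix x_at marks possible cross-hybridisation, but its other 4 probe sets stood between -0.01 and 0.04. A second ST3GAL1 probe set stood at -0.11. TMEM268 (0.29, adjusted p = 0.0065), ZFP69B (0.29, adjusted p = 0.010), KCTD13 (0.26, adjusted p = 0.028), SLC25A22 (0.24, adjusted p = 0.034) and HEMK2 (0.24, adjusted p = 0.034) completed the 15 highest. GPN2, a GTPase gene, rose by 0.23 (adjusted p = 0.0020), on all 18 EGF arrays.

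**Figure D2:**
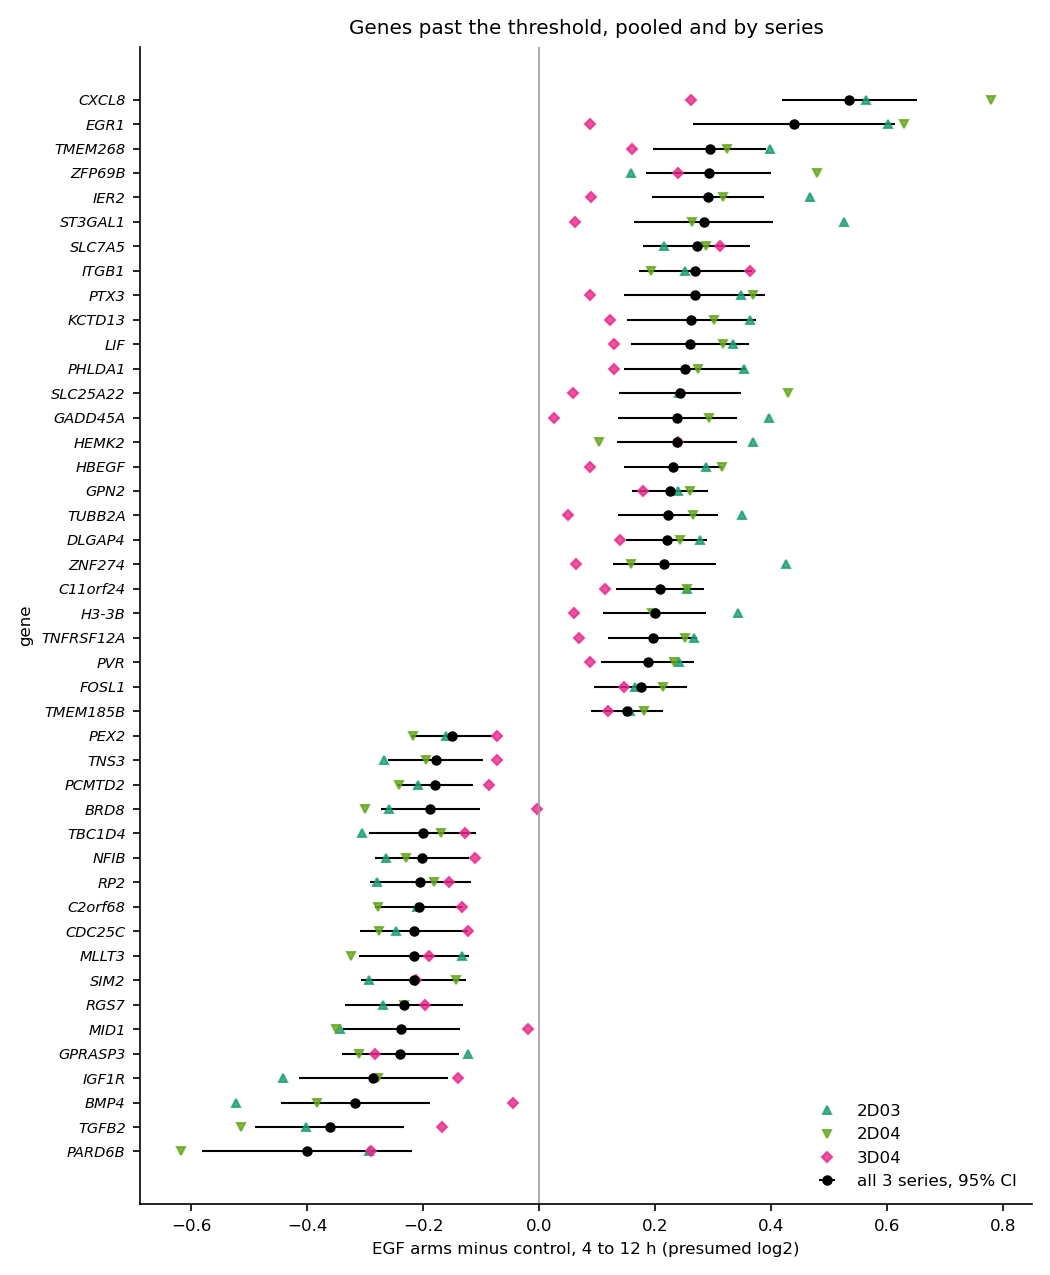
EGF arms minus control at 4 to 12 h (x axis, presumed log2) for the 44 genes past the threshold (y axis), as the difference over all 3 sets with its 95% interval (black) and as the difference in each set (2D03 and 2D04 triangles, 3D04 diamonds). The 3D04 diamond lies nearer to 0 than both 2D triangles for 37 of the 44 genes.

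Among the genes that fell were ligands of the TGF-beta family. TGFB2, which encodes transforming growth factor beta 2 on chromosome 1 (218345336 to 218444619), lay between -0.19 and 1.48 (median 1.03) on the EGF arrays, against 0.11 to 2.13 (median 1.42) in control. It was below its own control on 17 of 18 EGF arrays and fell 1.28-fold (log2 -0.36, SE 0.06, limma adjusted p = 0.0099). Its other 3 probe sets stood at -0.21, -0.15 and -0.02. BMP4, a bone morphogenetic protein, lay between 0.33 and 1.21 (median 0.95) on the EGF arrays, against 0.43 to 1.74 (median 1.41) in control, and fell by 0.32 on the log2 scale (SE 0.06, limma adjusted p = 0.025). Of 12 TGF-beta and SMAD genes these 2 fell (0.152% of all genes did) and 0 rose, with a median of -0.04. TGFB1 stood at 0.22 (adjusted p = 0.11) and ID1, a target of BMP signals, at -0.23 (adjusted p = 0.20). The other TGFB1 probe set stood at 0.05.

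PARD6B, a polarity gene, had the lowest difference of all genes measured, log2 -0.40 (SE 0.09, limma adjusted p = 0.045). Its block differences ran from -0.895 (2D04 at 8 h) to 0.15 (2D03 at 8 h), and 3D04 at 8 h stood at 0.03. The other PARD6B probe set stood at -0.32. IGF1R, the receptor of insulin-like growth factor 1, fell by 0.29 (adjusted p = 0.041) and was below its own control on 16 of 18 EGF arrays. The ubiquitin ligase gene MID1 fell by 0.24 (adjusted p = 0.028), RGS7, a regulator of G protein signalling, by 0.23 (adjusted p = 0.034), and the transcription factor genes SIM2 and NFIB by 0.22 (adjusted p = 0.028) and 0.20 (adjusted p = 0.025). The other probe set stood at 0.04 for RGS7, at 0.04 for SIM2 and at -0.23 for MID1. The other IGF1R probe sets stood at -0.21 and -0.07, and those of NFIB between -0.16 and -0.07. RGS7 and PCMTD2 were below their own control on all 18 EGF arrays, as 3 of all genes were (0.0253%). MLLT3, a chromatin reader gene, fell by 0.22 (adjusted p = 0.037), and TBC1D4, a Rab GTPase activator, by 0.20 (adjusted p = 0.045).

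Few genes of the cell cycle lists passed the test. CDC25C, the phosphatase that activates CDK1 at mitosis, fell by 0.22 (SE 0.04, limma adjusted p = 0.032). It was the only one of 26 G2/M genes past the test, and 0.152% of all genes fell. The median of the list was -0.05, and 8 of its genes had an unadjusted p under 0.05 on the lower side, which 584 of all genes (4.92%) had. Of its 26 genes 3 had a positive difference (11.5%, against 52.0% of all genes). The list median was -0.09 in 2D and 0.01 in 3D. TTK, a spindle checkpoint kinase, stood at -0.16 (adjusted p = 0.13), BUB1B at -0.13 (adjusted p = 0.18) and KIF20A at -0.11 (adjusted p = 0.15). None of 24 G1/S and replication genes passed (median -0.01). Of 17 measured CDK inhibitor and FOXO-linked quiescence genes 1 rose (GADD45A, against 0.219% of all genes) and 0 fell, with a median of -0.01. On the higher side 2 had an unadjusted p under 0.05 (6.4% of all genes had), and on the lower side 6 (4.92% of all genes had). The CDK inhibitor genes CDKN1A and CDKN1B stood at 0.28 (adjusted p = 0.21) and -0.18 (adjusted p = 0.11).

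In growth and stress lists no gene passed, though several stood near the threshold. NOP56, a nucleolar protein of ribosome assembly, stood at 0.16 (adjusted p = 0.056) and was above its own control on all 18 EGF arrays. ODC1, which makes polyamines, stood at 0.15 (adjusted p = 0.064). Of 16 ribosome biogenesis genes 6 had an unadjusted p under 0.05 on the higher side, which 6.4% of all genes had. The median of that list was 0.07. Of 14 ATF4 and unfolded protein genes 7 had one, with a median of 0.08, led by DDIT3 at 0.21 (adjusted p = 0.067). Of 12 cholesterol, 10 heat shock, 16 hypoxia, 13 interferon and 7 aryl hydrocarbon receptor genes 0 passed in each list. The other cell types' lists gave 0 calls, among 6 leukocyte (differences -0.01 to 0.05), 8 fibroblast (-0.08 to 0.08) and 10 luminal epithelial markers (-0.14 to 0.16).

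**Figure D3:**
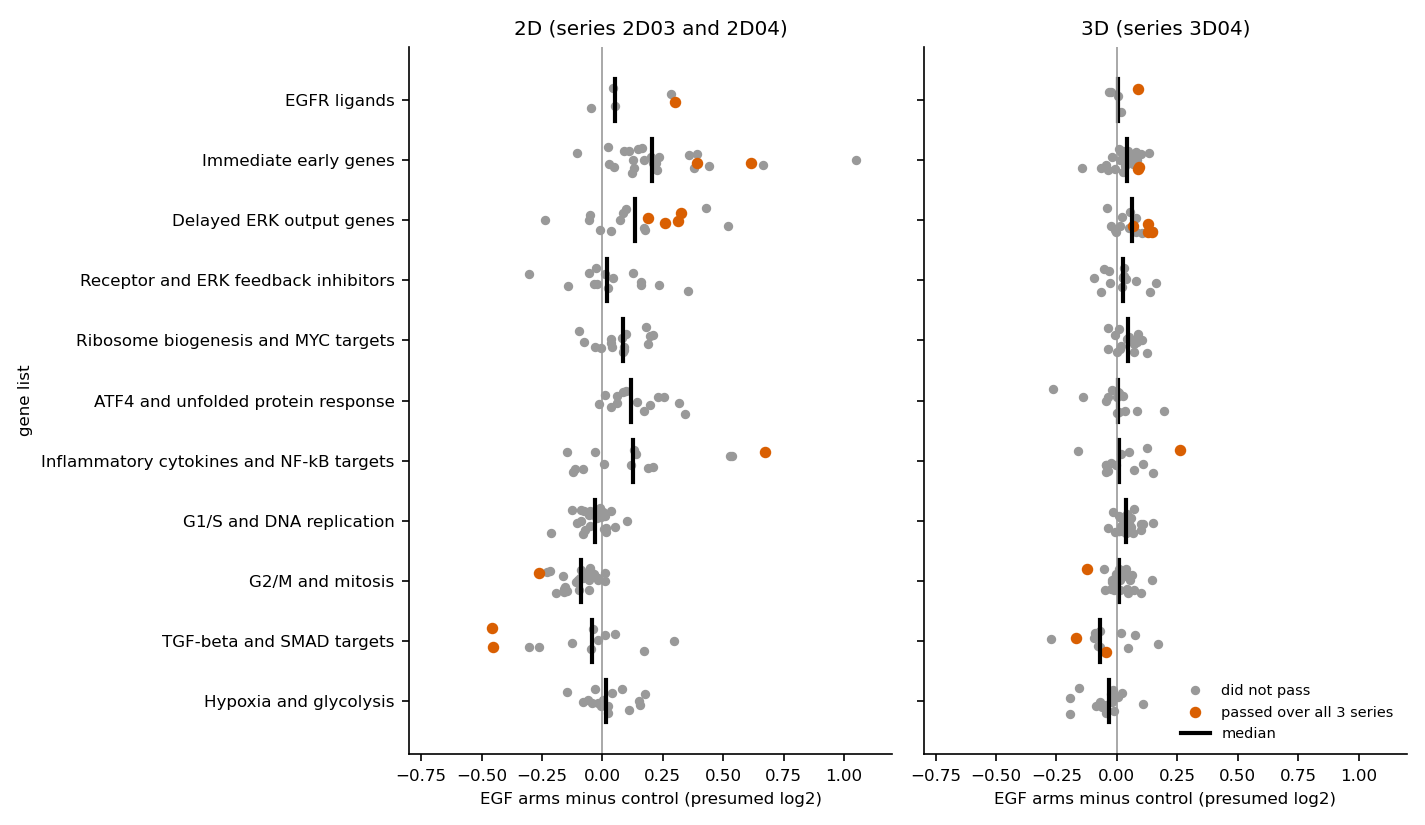
EGF arms minus control (x axes, presumed log2) for the members of 11 gene lists (y axis) in 2D culture (left) and 3D culture (right), with black bars for list medians and orange points for genes past the threshold over all 3 sets. The median of the immediate early genes was 0.20 in 2D and 0.04 in 3D.

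Both EGF arms were set against the same control arrays, so their values are given side by side. The EGF arm alone left 2 genes past the test (0.0168%), CXCL8 and GPN2, and the DMSO-EGF arm alone 45 (0.379%). CXCL8 stood at 0.54 in the EGF arm and 0.53 in the DMSO-EGF arm, IER2 at 0.28 and 0.30, and TGFB2 at -0.33 and -0.39. EGR1 was less even, at 0.29 (adjusted p = 0.18) in the EGF arm and 0.59 (adjusted p = 0.00051) in the DMSO-EGF arm. In every block its value was higher in DMSO-EGF than in EGF cells. The median over the 26 genes that rose was 0.22 in the EGF arm and 0.24 in the DMSO-EGF arm, and over the 18 that fell -0.20 and -0.24. No gene passed the test of DMSO-EGF minus EGF in limma (0%), where 693 had an unadjusted p under 0.05 (5.84%). The control cells received no DMSO, so in the DMSO-EGF arm EGF and DMSO cannot be told apart. The comparison of both EGF arms with control includes that arm and carries the same limit.

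The differences did not pass a test between the times 4, 8 and 12 h. No gene passed in limma (0%, smallest adjusted p = 0.57), and 859 had an unadjusted p under 0.05 (7.23%). CXCL8 stood at 0.57, 0.51 and 0.53 at 4, 8 and 12 h, HBEGF at 0.19, 0.27 and 0.23, and TGFB2 at -0.27, -0.51 and -0.30. RHOB stood at 1.32, 0.34 and 0.47. Taken alone, none of the 3 times gave a gene past the test (0%), with 721 genes (6.07%), 1584 (13.3%) and 834 (7.02%) at an unadjusted p under 0.05.

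Outside the window, on other arrays, the medians of the same genes lay nearer to 0. The genes were chosen by their differences inside the window, and that choice alone would make their values on other arrays smaller. At 0.5 and 1 h 0 genes passed in limma (693 at an unadjusted p under 0.05, 5.84%), and at 24 and 48 h 2 fell (0.0168%), TGFB2 (log2 -0.38, limma adjusted p = 0.018) and MATN2, a matrix protein gene (log2 -0.41, adjusted p = 0.024), and 613 had an unadjusted p under 0.05 (5.16%). The median over the 26 genes that rose at 4 to 12 h was 0.05 before the window and 0.03 after it. Of these 26, 17 were higher with EGF before the window (52.7% of all genes were) and 20 after it (50.2% of all genes were). Of the 18 genes that fell, 9 were lower with EGF before the window (47.3% of all genes were) and 14 after it (49.8% of all genes were). CXCL8 stood at 0.10 before and 0.002 after, and EGR1 at 0.17 and 0.12. RHOB stood at 0.66 before (adjusted p = 0.59) and 0.02 after.

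**Figure D4:**
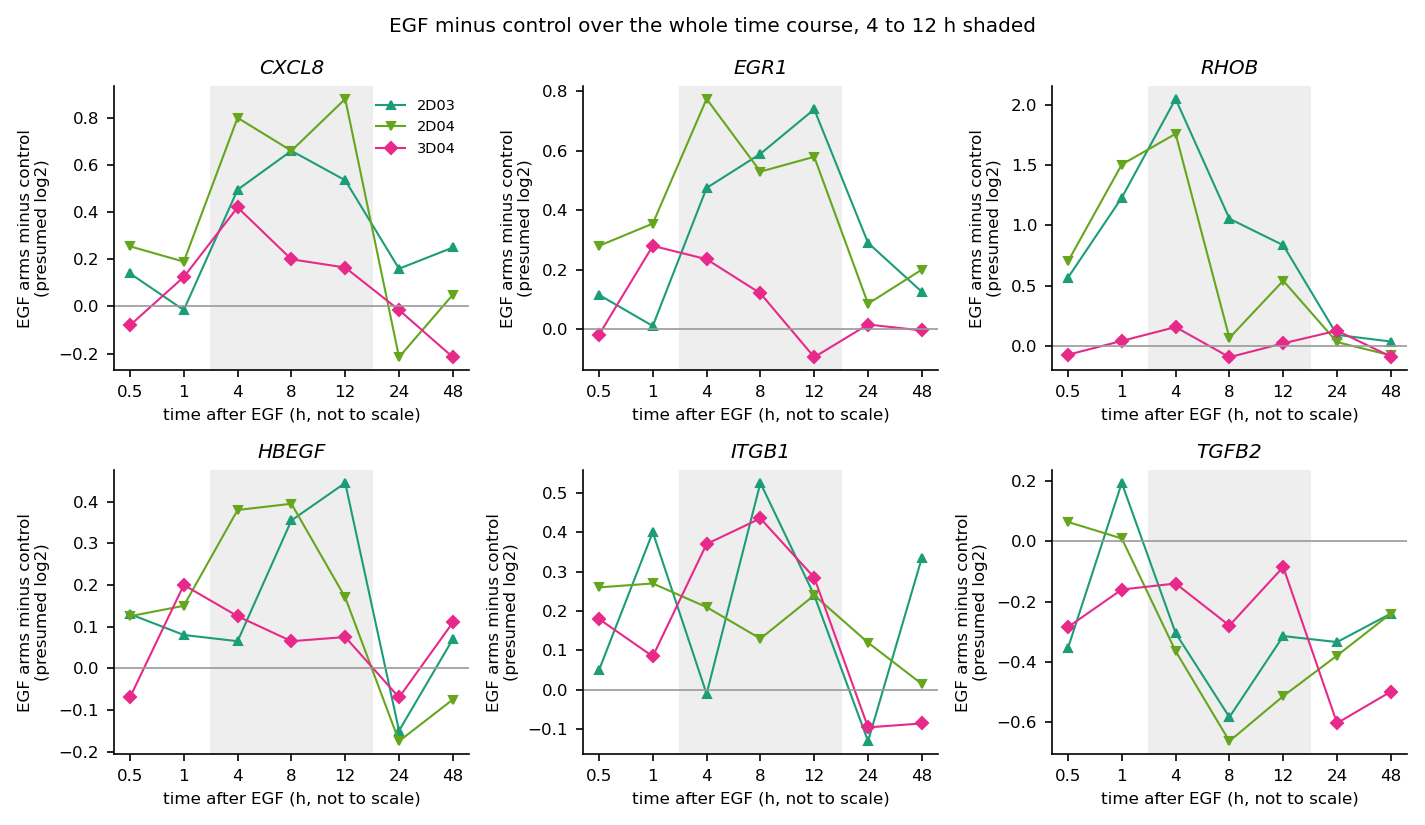
EGF arms minus control (y axes, presumed log2) at each time from 0.5 to 48 h (x axes, spaced evenly and not to scale) for 6 genes, by set, with the 4 to 12 h window shaded. RHOB peaks at 4 h in both 2D sets, at 2.05 in 2D03 and 1.76 in 2D04, and TGFB2 stays below 0 at 24 and 48 h in all 3 sets.

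The 44 genes were chosen over all 3 sets, so their size in each set is a description. With each set's effect taken from one fit, 105 genes passed in 2D03 (0.884%), 17 in 2D04 (0.143%) and 0 in 3D04 (0%), where 280 had an unadjusted p under 0.05 (2.36%). CXCL8 stood at 0.26 in 3D against 0.56 in 2D03 and 0.78 in 2D04, a 3D minus 2D difference of -0.41 (95% interval -0.56 to -0.26, limma adjusted p = 0.13). EGR1 stood at 0.09 in 3D against 0.60 and 0.63, a difference of -0.53 (95% interval -0.83 to -0.23, adjusted p = 0.56). SLC7A5 stood at 0.31 in 3D against 0.21 and 0.29, a difference of 0.06 (95% interval -0.14 to 0.26). No gene passed the test of 3D minus 2D in limma (0%), where 635 had an unadjusted p under 0.05 (5.35%), nor the test of any difference between the 3 sets (0%, 733 at an unadjusted p under 0.05, 6.17%, smallest adjusted p = 0.098). Culture and set cannot be told apart, as 3D was 1 set.

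A reading of 3D that the choice of genes did not use came from the 2D arrays alone, in which 59 genes rose (0.497%) and 25 fell (0.211%). In 3D 40 of the 59 were higher with EGF (67.8%, against 55.7% of all genes) and 19 of the 25 were lower (76%, against 44.3% of all genes). Their medians in 3D were 0.03 for the 59 and -0.03 for the 25, against 0.31 and -0.28 in the 2D arrays that chose them. None passed in the 3D arrays fitted alone (0%), where 648 genes had an unadjusted p under 0.05 (5.46%).

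The arm with U0126, an inhibitor of MEK, and EGF was read against DMSO-EGF at the same times, a comparison that shares the DMSO-EGF arrays with the one above. In it 2865 genes passed in limma (24.1%). CXCL8 stood at log2 -2.31 in U0126 minus DMSO-EGF beside 0.54 in EGF minus control, EGR1 at -3.18 beside 0.44, IER2 at -1.26 beside 0.29 and PHLDA1 at -2.09 beside 0.25. HBEGF stood at -1.28 beside 0.23, LIF at -1.26 beside 0.26 and FOSL1 at -1.12 beside 0.18. The feedback genes SPRY4, DUSP5 and DUSP6 stood at -2.82, -3.17 and -2.72, beside EGF differences of 0.13, 0.16 and 0.11 that did not pass. Each of these genes was thus further from 0 in the U0126 comparison than in the EGF comparison. GADD45A stood at 0.03 (adjusted p = 0.89) beside 0.24, SLC7A5 at 0.48 beside 0.27 and RHOB at 0.71 beside 0.71. Of the genes that fell with EGF, MID1 stood at 0.84 beside -0.24, BMP4 at 0.35 beside -0.32, TGFB2 at -0.33 (adjusted p = 0.45) beside -0.36 and IGF1R at -0.49 beside -0.29.

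**Figure D5:**
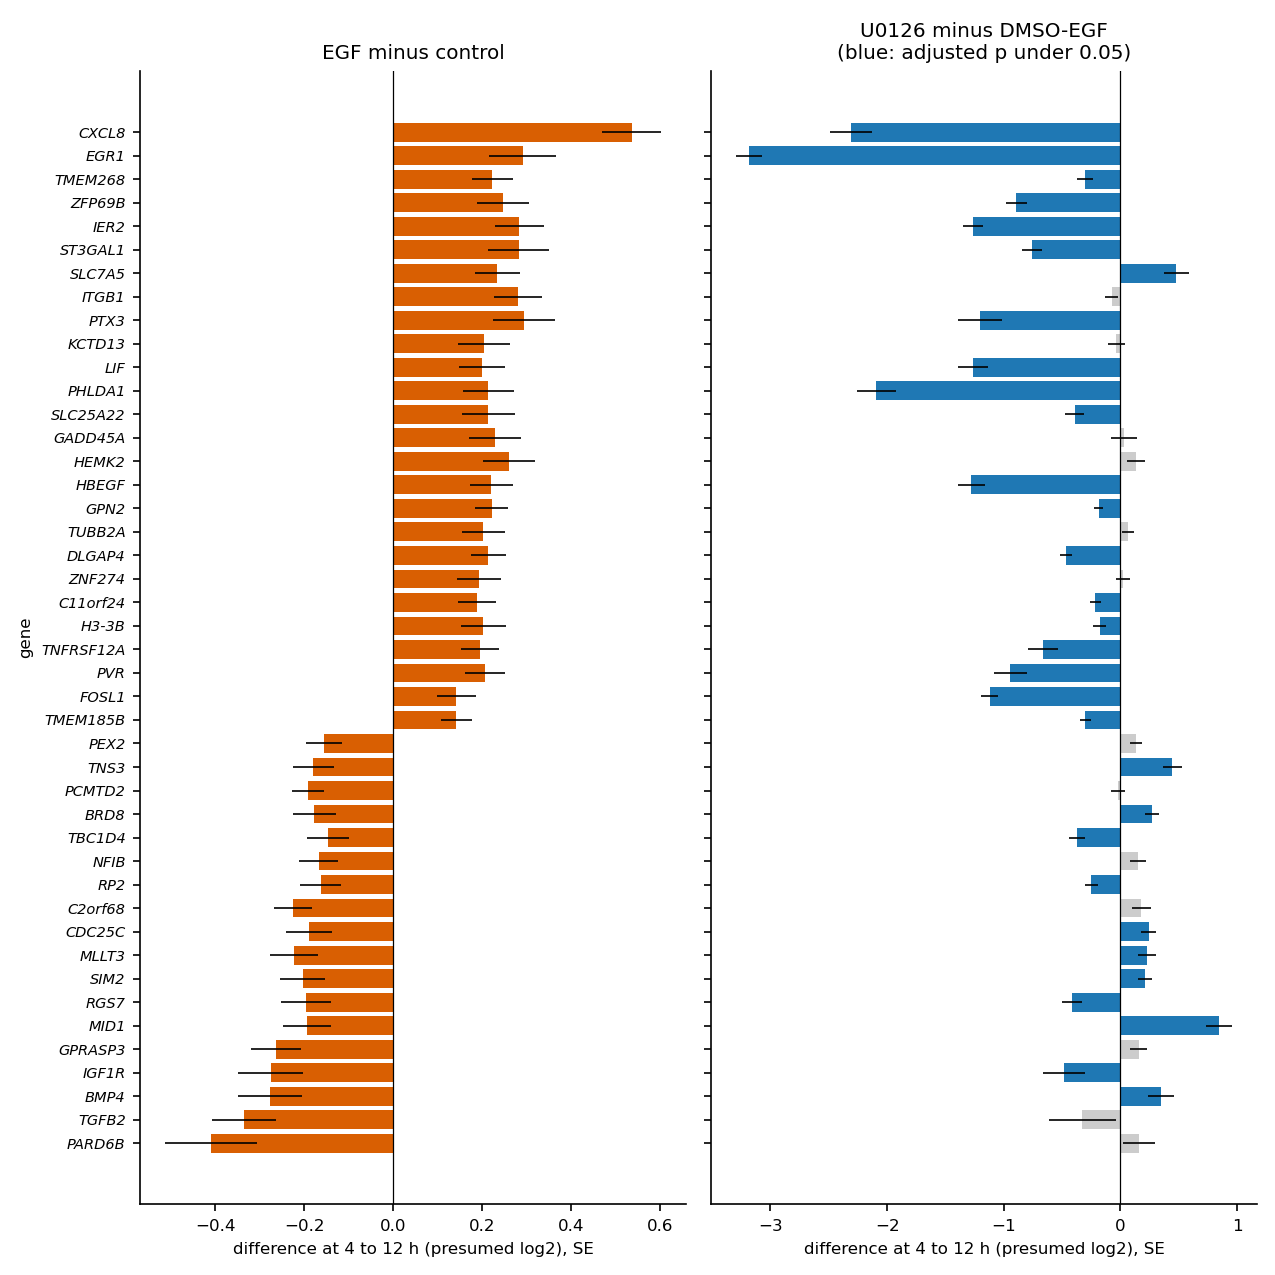
Differences at 4 to 12 h (x axes, presumed log2, with SE) of the 44 genes (y axis) in the EGF arm minus control (left) and in U0126 minus DMSO-EGF (right, blue where the adjusted p was under 0.05). The scales differ: the left axis reaches 0.54 for CXCL8, and the right reaches -3.18 for EGR1.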

How the data were processed

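The study used Affymetrix arrays of total RNA. The deposited table holds 1 value for each probe set and array, taken here as log2, since RMA, which returns that scale, appears in the submitters' processing notes. Neither the log base nor the reference is given in the sources used here. Deposited values ran from -5 to 5.7 and array medians from -0.06 to 0.03, which fits values centred by probe set, and folds assume log2. The label 05h was taken to mean 0.5 h. Precision is limited by the number of arrays.

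Of 22930 probe sets, 19290 had 1 current human gene symbol. Left out were 524 array controls, 125 with several symbols, 125 with no current human gene and 2866 that were not listed. For 4449 of the 11874 genes more than 1 probe set was listed, and the one varying most (SD over all arrays) was read, which can favour larger changes. No filter on low values was used.

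Differences were fitted with limma 3.58.1 in R 4.3.3 (lmFit, then eBayes with a variance trend) as both EGF arms minus control, with a term for each of 9 blocks of set and time (27 arrays, 17 residual degrees of freedom). Effects by arm, time and set came from the same arrays, U0126 from 36 arrays, and the windows before and after from 18 arrays each. P-values were Benjamini-Hochberg adjusted over all genes. The block follows the set named in the labels. After it, residuals of the same set and arm at different times correlated by -0.32 to 0.17 (median -0.03, 27 pairs). No 2 arrays were identical. On simulated data of this comparison (11874 genes), 84% of changes of log2 0.25 and 100% of 0.5 were called with 9 false calls, and 0 were called where none was set. The simulated noise was independent between genes and arrays, with a single SD per gene. The real blocks differed in spread (SD over genes 0.125 to 0.259), so these rates hold for the simulated setting.

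Named were RHOB, IER2, EGR1, FOS, DUSP6, SPRY4, FOSL1, CCND1, MYC, EGFR and HBEGF, the 15 highest and 15 lowest genes that passed, and up to 4 members of each of 22 lists with the smallest p. GPN2, PVR, PCMTD2 and MATN2 were named after their values were seen. Of 336 list entries 311 were measured. The comparison, lists and named genes were chosen with earlier results of these data known, and lists are described by counts and medians, without a test. The result of 1 list is not reported here. Alternatives changed the block, scaling, probe set rule, filter, variance model and arrays, and 3 were chosen after seeing the data.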

Additional observations from a re-analysis of the deposited data

Results flagged for a closer look

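In 51 genes the 9 block differences between EGF and control were examined for a block far from the others, and 2 genes had one. Chance alone is known to pick a small share of such sets of values, about 1 in 20. RGS7 stood at -0.52 in set 2D03 at 8 h, where the next block stood at -0.31. MLLT3 stood at -0.505 in set 2D04 at 4 h, where the next block stood at -0.27. In both genes the block that stood apart was the one furthest from 0.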

How the results depend on the processing

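All 44 genes kept their direction in each alternative that tested them. Those alternatives reused the arrays that chose the genes, or parts of them. CXCL8 passed in 47 of 52, the most of the 44, IER2 in 41 and EGR1 in 33. Others passed less often, among them GADD45A in 24, RGS7, IGF1R and HEMK2 in 21 and MLLT3 in 20. PARD6B passed in 17, FOSL1 and TBC1D4 in 16 and PTX3 in 15. The number of genes past the test moved with the fit. Against 44 genes with a block for each set and time, no replicate block left 1 (GPN2), an additive replicate block 26, a random replicate block 9 and set means, chosen after seeing the data, 0 (1245 at an unadjusted p under 0.05 in limma). Array weights gave 24 and weights by set and time, chosen after seeing the data, 25. All 36 arrays in one fit gave 3, the mean of a gene's probe sets 69 and the 5937 genes with the larger SD 89. The EGF arm alone gave 2 (5 with the mean of probe sets), 2D alone 84 and 3D alone 0. The late window gave 1 with the mean of probe sets, against 2. Median centring (46), quantile normalization (54), every probe set (57), no variance trend (44), robust variance (42) and the DMSO-EGF arm alone (45) stayed within 1.5 times. Leaving out a set gave 1 to 84 genes, a time 1 to 2, and the 2D03 block at 8 h, chosen after seeing the data, 18. Leaving out single arrays gave 8 to 85 (median 38). The fewest were left without the 2D04 control array at 4 h (8), 12 h (18) or 8 h (19) and without the 2D03 control array at 8 h (19), 12 h (20) or 4 h (25), and 28 without the 2D04 DMSO-EGF array at 4 h. The most came without the 3D04 control array at 8 h (85) or 12 h (67). The cause was not tested. Among genes that did not pass, EGFR turned to 0.015 in 3D alone and CCND1 to 0.0025 without the 2D04 control array at 8 h (-0.0625 to 0.0025 over single arrays left out). RHOB passed in 4 of 52 alternatives and MYC in 4. With 1 control array per block, each control array weighs on both EGF arms.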
